A study of Mus musculus with 9 samples.

Results

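The messenger RNA levels of the 4 Janus kinase (JAK) genes Jak1, Jak2, Jak3 and Tyk2 and of 4 genes for phosphatases that act on JAK signalling, Ptpn1, Ptpn2, Ptpn6 and Ptpn11, were followed in mouse regulatory T cells (Tregs) given IL-2. The 8 genes were chosen by symbol from the 23992 genes of the deposited tables, and all 8 were expressed at a level that allowed a test. Where a gene had several RefSeq transcripts, which was so for 6 of the 8, the transcript with the most reads over the 9 libraries stood for it.

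The series used BALB/c Tregs marked by Foxp3-linked GFP and transduced with an engineered IL-2 receptor beta chain (oIL-2Rβ) that carries a human EGFR tag. The ortho IL-2 group received 2000000 IU/mL of an engineered IL-2 made for that chain, the WT IL-2 group received 20000 IU/mL of wild-type IL-2, and the no IL-2 group received neither, each for 4 hours and each in 3 libraries. Cells of all 3 groups carried the engineered chain beside their own receptor, had grown for 48 hours on beads against CD3 and CD28 in 1000 IU/mL human IL-2, had been selected on the tag with magnets, and had then been starved of IL-2 overnight. The IL-2 doses of the stimulated groups differ, so ortho and WT IL-2 were compared at these doses only. Another label describes a suppression co-culture, so the account of the culture rests on the treatment label. For the mice's age, the pooling of spleens and the promoter of the construct, no statement was found in the labels. Nor do they say whether the libraries within a group are separate cultures, so p-values here reflect only the variation among these libraries, some or all of which may be technical.

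JAKs are cytoplasmic tyrosine kinases that sit on the tails of cytokine receptors and, once the receptor is engaged, phosphorylate it, each other and STAT transcription factors. At the IL-2 receptor, JAK1 is held by the beta chain and JAK3 by the common gamma chain, and the signal in Tregs runs mainly through STAT5. PTP1B (from Ptpn1) and TC-PTP (from Ptpn2) remove phosphate from JAKs, SHP-1 (from Ptpn6) is a phosphatase that dampens many receptor signals in blood cells, and SHP-2 (from Ptpn11) mostly promotes signalling through the Ras pathway. RNA levels say nothing of the phosphorylation of these proteins.

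Promoter sequences are shown for the genes whose RNA moved furthest, so that a falling and a rising gene can be set side by side. Each window, from the RefSeq table for GRCm38.p6, runs 5′ to 3′ on the strand of the gene. It takes in 250 bases before and 50 bases after the RefSeq start, and the capitals mark the 50 bases from that start on. The Jak1 window is chr4:101265174-101265473 on the minus strand and the Jak2 window is chr19:29251553-29251852 on the plus strand. The Jak3 window is chr8:71676133-71676432 and the Ptpn1 window chr2:167932077-167932376, both on the plus strand. In the GENCODE M21 annotation Ptpn1 starts at 167932057, so its whole window lies inside the gene as placed there.
Jak1: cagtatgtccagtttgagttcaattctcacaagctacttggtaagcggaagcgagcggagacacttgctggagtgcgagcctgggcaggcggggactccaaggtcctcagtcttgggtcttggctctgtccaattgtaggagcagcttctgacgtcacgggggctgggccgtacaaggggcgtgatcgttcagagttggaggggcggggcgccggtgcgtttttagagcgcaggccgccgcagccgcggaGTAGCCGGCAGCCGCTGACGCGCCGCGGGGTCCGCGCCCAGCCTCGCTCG
Jak2: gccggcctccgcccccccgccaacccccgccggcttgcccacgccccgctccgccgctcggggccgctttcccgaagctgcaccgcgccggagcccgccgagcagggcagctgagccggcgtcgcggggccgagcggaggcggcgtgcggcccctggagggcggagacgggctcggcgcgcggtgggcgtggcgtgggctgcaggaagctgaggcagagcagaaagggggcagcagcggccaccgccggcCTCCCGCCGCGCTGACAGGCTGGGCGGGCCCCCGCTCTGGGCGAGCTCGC
Jak3: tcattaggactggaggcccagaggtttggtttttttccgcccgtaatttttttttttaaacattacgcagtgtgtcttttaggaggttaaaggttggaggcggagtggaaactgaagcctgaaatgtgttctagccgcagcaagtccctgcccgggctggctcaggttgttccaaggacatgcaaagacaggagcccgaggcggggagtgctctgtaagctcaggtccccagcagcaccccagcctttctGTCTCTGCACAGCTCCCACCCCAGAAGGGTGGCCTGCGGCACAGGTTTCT
Ptpn1: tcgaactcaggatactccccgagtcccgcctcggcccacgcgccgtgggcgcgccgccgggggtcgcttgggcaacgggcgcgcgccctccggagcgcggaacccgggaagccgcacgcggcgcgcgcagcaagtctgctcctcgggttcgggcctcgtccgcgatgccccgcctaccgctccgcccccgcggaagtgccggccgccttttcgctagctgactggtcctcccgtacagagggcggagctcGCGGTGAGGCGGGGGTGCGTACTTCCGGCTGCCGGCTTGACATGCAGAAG

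The palindrome TTCNNNGAA, the usual core of a STAT5 site, reads the same on both strands. It was found in none of the windows of the 7 genes that had one (Jak1, Jak2, Jak3, Tyk2, Ptpn1, Ptpn6 and Ptpn11). Over all 32851 windows of this length, 2726, or 8.30%, held it, and the window of Cish, a classical IL-2 target, held 2 matches. A miss says only that these letters are not in 300 bases. The windows of Jak2 and Ptpn1 were rich in G and C, at 81% and 74%, against a median of 52.7% over all windows, and that of Jak3 was at 54.3%.

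The cells had the profile of Tregs. The summed RPKM (reads scaled by transcript length and by library total) of 8 Treg and T cell markers, among them Foxp3, Cd4, Cd3e and Il2ra, was 1885 to 2118 in ortho IL-2, 1821 to 2001 in WT IL-2 and 1295 to 1412 in no IL-2 libraries. Without Il2ra the other 7 summed to 1121 to 1328 in ortho IL-2, 1095 to 1198 in WT IL-2 and 1143 to 1245 in no IL-2 libraries, so the groups overlapped. Among those 7, Foxp3 was called higher with both forms of IL-2 and Ctla4, Ikzf2, Cd4, Cd3d and Cd3g lower. That of 6 CD8 T and NK cell markers was 5.65 to 6.01 in ortho IL-2, 5.02 to 5.80 in WT IL-2 and 4.35 to 4.96 in no IL-2 libraries. The 6 B cell markers summed to 2.39 to 2.71 in ortho IL-2, 2.06 to 2.44 in WT IL-2 and 1.89 to 2.37 in no IL-2 libraries. The 7 myeloid markers in the tables summed to 1.17 to 1.42 in ortho IL-2, 1.23 to 1.38 in WT IL-2 and 1.27 to 1.88 in no IL-2 libraries. These sums are small beside those of the T cell markers; their part in the changes below was not tested. Of the myeloid markers, Lyz2 and Csf1r peaked at 3 reads and 1 read in any library, while Itgam had at least 148 reads in every library and made up most of that sum. Itgam averaged 1.08 RPKM in ortho IL-2, 1.05 in WT IL-2 and 1.38 in no IL-2 libraries and was called lower with ortho IL-2 (log2 -0.62, adjusted p = 0.00418 by edgeR) and WT IL-2 (-0.60, adjusted p = 0.00547). Of the CD8 T and NK cell markers, Ncr1 peaked at 4 reads and Cd8b1 had 112 to 445 reads. The libraries held 16581624 to 58182835 reads in genes. Reads outside the chosen transcripts made up 29.4% ± 3.64 of the total behind the RPKM in ortho IL-2, 31.7% ± 2.96 in WT IL-2 and 40.5% ± 2.43 in no IL-2 libraries (SD, n = 3 each), so this share moved with the groups.

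Jak1 was by far the most abundant of the 8 transcripts per length in all 3 groups. Mean RPKM of Jak1 was 146 in ortho IL-2, 143 in WT IL-2 and 191 in no IL-2 cells. In no IL-2 cells it was followed by Jak2 (60.8), Jak3 (26.8), Ptpn6 (22.7), Ptpn1 (19.5), Ptpn2 (13.4), Ptpn11 (10.5) and Tyk2 (8.96), with no overlap between neighbours in this order. Under IL-2 Jak3 stood second in mean RPKM, at 49.7 with ortho IL-2 and 41.9 with WT IL-2. Jak2 had 41.2 with ortho IL-2 and 41.9 with WT IL-2, Ptpn1 had 38.6 with ortho IL-2 and 37.4 with WT IL-2, and Ptpn6 had 37.5 with ortho IL-2 and 33.7 with WT IL-2. Among these 4 genes each overlapped its neighbour in the order. Ptpn11 had 14.5 with ortho IL-2 and 13.9 with WT IL-2, and Ptpn2, which overlapped it, 14.2 with ortho IL-2 and 14.4 with WT IL-2. Tyk2 was last, at 11.6 with ortho IL-2 and 10.7 with WT IL-2. The place of Ptpn2 rests on its transcript. On a shorter one it had 53.3 RPKM in ortho IL-2, 52.8 in WT IL-2 and 45.5 in no IL-2 cells, which is above Jak3 in each group.

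**Figure D1:**
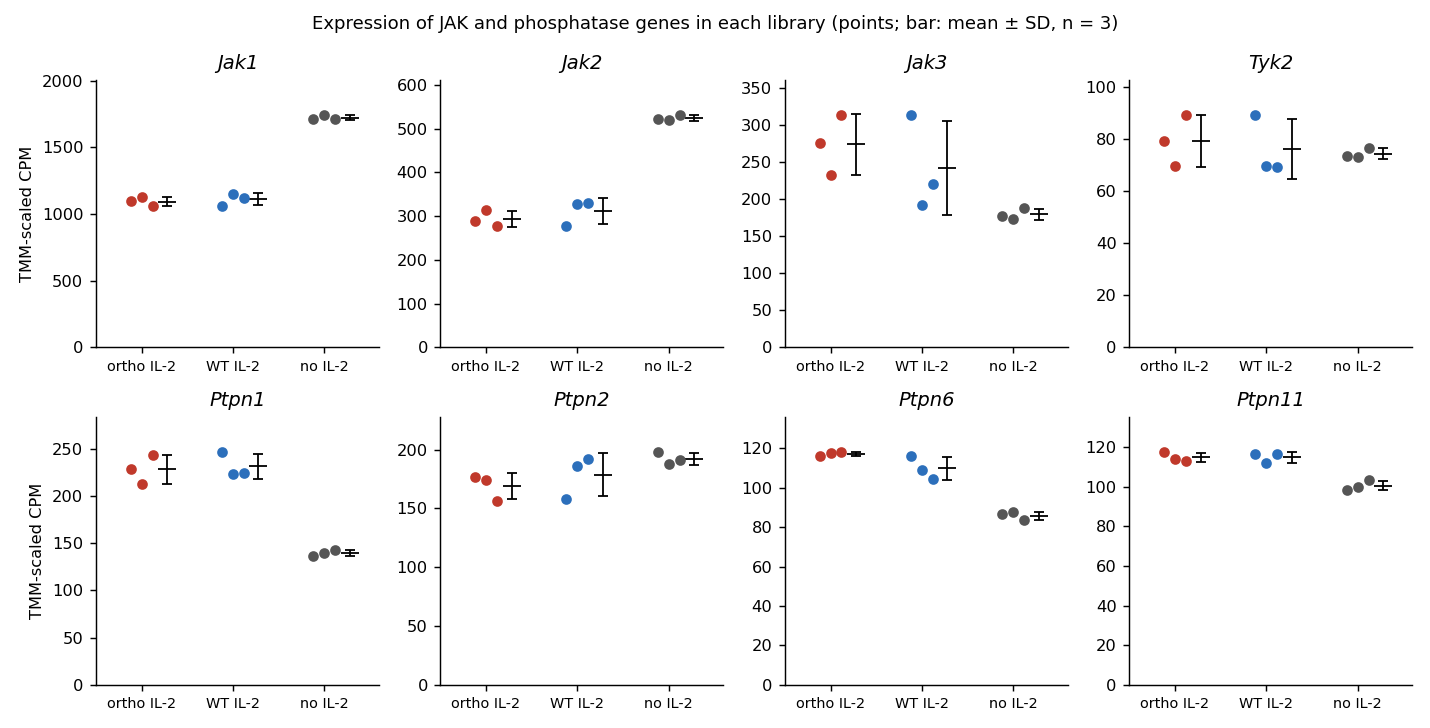
Levels of the 8 genes in each library. The vertical axes, each from 0, give TMM-scaled CPM (reads scaled by library depth), points are the 9 libraries in the order of their replicate numbers, and bars are means ± SD (n = 3). Jak1 and Jak2 lay lower in all 6 IL-2 libraries than in the 3 no IL-2 libraries. Jak3, Ptpn1, Ptpn6 and Ptpn11 lay higher, with Jak3 only just so in the second WT IL-2 library.

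Changes between groups were tested on the deposited read counts of 10702 genes that reached 1 RPKM or more in 3 or more libraries. The test was the quasi-likelihood test of edgeR, with TMM scaling and Benjamini-Hochberg adjustment over all 10702 genes, and a gene was called at an adjusted p under 0.05. Of the 8 genes, 6 were called with ortho IL-2 against no IL-2, 4 higher and 2 lower, where 56.0% of all genes tested were called, 28.5% higher and 27.4% lower. With WT IL-2 against no IL-2, 5 were called, 3 higher and 2 lower, where 47.9% of all genes were called, 25.0% higher and 22.9% lower. With so much of the transcriptome called, these counts are no result about the 8 genes as a group. Groups did not overlap for 7 of the 8 with ortho IL-2, as for 66.1% of all genes, and for 6 of the 8 with WT IL-2, as for 58.8%. The same 3 libraries without IL-2 served both comparisons. In bulk RNA, fewer cells that express a gene and less of its RNA per cell cannot be told apart.

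Both kinases that led in resting cells fell. Jak1, the kinase on the beta chain, had 1095, 1125 and 1060 CPM in ortho IL-2, 1060, 1153 and 1123 in WT IL-2 and 1709, 1746 and 1716 in no IL-2 libraries. The 6 IL-2 libraries lay together, well below the resting ones. Jak1 fell 1.58-fold with ortho IL-2 (log2 fold change -0.66, SE 0.05, adjusted p = 2.1e-06 by edgeR) and 1.55-fold with WT IL-2 (-0.63, SE 0.05, adjusted p = 2.78e-06). Over all genes tested, the ortho IL-2 change stood at percentile 6.55 and the WT IL-2 change at percentile 6.05, near the lower end.

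Jak2, which serves receptors such as those for interferon-gamma and IL-12 and is not a part of the IL-2 receptor, fell as well. It had 289, 315 and 278 CPM in ortho IL-2, 277, 328 and 330 in WT IL-2 and 521, 520 and 532 in no IL-2 libraries. The IL-2 groups overlapped each other and stayed below every resting library. The fall was 1.79-fold with ortho IL-2 (log2 -0.84, SE 0.07, adjusted p = 8.63e-06 by edgeR) and 1.68-fold with WT IL-2 (-0.75, SE 0.07, adjusted p = 1.89e-05). Among all genes tested, the ortho IL-2 change stood at percentile 4.19 and the WT IL-2 change at percentile 4.47.

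Jak3, the kinase on the common gamma chain, went the other way, with a wide spread. It had 276, 232 and 314 CPM in ortho IL-2, 313, 192 and 221 in WT IL-2 and 177, 173 and 188 in no IL-2 libraries. Every stimulated library was above the resting ones, the second WT IL-2 library only just, and the third ortho IL-2 and the first WT IL-2 library stood highest. Jak3 rose 1.53-fold with ortho IL-2 (log2 0.61, SE 0.17, adjusted p = 0.0109 by edgeR). With WT IL-2 its log2 fold change was 0.43 (SE 0.17, adjusted p = 0.0543), which did not pass. It was 0.20 (adjusted p = 0.169) without the first WT IL-2 library and 0.57 (adjusted p = 0.0136) without the second, and DESeq2 called it (0.42, adjusted p = 0.0189). Without the second or the third ortho IL-2 library, which enter through the shared estimate of the spread, the WT change of 0.43 was called as well (adjusted p = 0.0466 and 0.0422 by edgeR), and 10 of 20 alternatives called it in all. Jak3 has one of the most G and C rich transcripts, at 61.1%, percentile 97.4 of the genes tested. With offsets for GC content and length its log2 changes were 0.32 with ortho IL-2 and 0.24 with WT IL-2, both called (adjusted p = 0.00132 with ortho IL-2 and 0.00913 with WT IL-2 by edgeR). With the share of reads outside the transcripts as a covariate, neither was called (ortho IL-2 0.47, adjusted p = 0.430, and WT IL-2 0.32, adjusted p = 0.502 by edgeR). That share moved with the groups, and the SE in this fit was 0.34 with ortho IL-2 and 0.29 with WT IL-2. Jak3 also shares 404 exon bases with Insl3 on the same strand, which had 7.53 to 23.8 RPKM, so reads of the pair may be mixed.

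Tyk2, the kinase of type I interferon and IL-12 receptors, was not called in either comparison. It had 79.3, 69.5 and 89.4 CPM in ortho IL-2, 89.4, 69.9 and 69.3 in WT IL-2 and 73.5, 73.2 and 76.8 in no IL-2 libraries. The groups overlapped, and the highest values came from the same ortho and WT libraries that were highest for Jak3. The log2 fold change was 0.10 (95% interval -0.15 to 0.35) with ortho IL-2 and 0.03 (-0.21 to 0.28) with WT IL-2. With GC and length offsets, and with the covariate, its sign turned, to -0.08 and -0.11 with ortho IL-2 and -0.08 and -0.13 with WT IL-2 in these fits, and without the first WT IL-2 library the WT change was -0.10. On RPKM without further scaling the ortho change was called, at 0.33 to 0.38. An antisense RNA, 1700084C06Rik, shares 554 exon bases with Tyk2, and since the use of strand is not given their reads cannot be told apart.

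Among the phosphatases Ptpn1, for PTP1B, rose most. It had 229, 213 and 243 CPM in ortho IL-2, 247, 223 and 224 in WT IL-2 and 137, 139 and 143 in no IL-2 libraries. Every IL-2 library was above every resting one by a wide gap. The rise was 1.64-fold with ortho IL-2 (log2 0.71, SE 0.06, adjusted p = 7.76e-06 by edgeR) and 1.66-fold with WT IL-2 (0.73, SE 0.06, adjusted p = 6.67e-06), at percentile 92.5 of all genes with ortho IL-2 and 93.5 with WT IL-2.

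Ptpn6, for SHP-1, rose less. It had 116.1, 117.5 and 118.1 CPM in ortho IL-2, 115.8, 109.2 and 104.3 in WT IL-2 and 86.5, 87.5 and 83.5 in no IL-2 libraries. The stimulated groups lay above the resting one, and the 3 ortho libraries were all just above the 3 WT libraries. Ptpn6 rose 1.37-fold with ortho IL-2 (log2 0.45, SE 0.05, adjusted p = 3.74e-05 by edgeR) and 1.28-fold with WT IL-2 (0.35, SE 0.05, adjusted p = 0.000194). With GC and length offsets these changes were smaller, at 0.28 with ortho IL-2 and 0.24 with WT IL-2, and still called. An antisense RNA, Gm20531, shares 195 exon bases with Ptpn6.

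Ptpn11, for SHP-2, made the smallest of the called rises. It had 118, 114 and 113 CPM in ortho IL-2, 117, 112 and 117 in WT IL-2 and 98.5, 100.1 and 103 in no IL-2 libraries. The spread within each group was small, and the stimulated libraries all lay above the resting group. The rise was 1.14-fold with both ortho IL-2 (log2 0.19, SE 0.04, adjusted p = 0.00325 by edgeR) and WT IL-2 (0.19, SE 0.04, adjusted p = 0.00356). With the share of reads outside the transcripts as a covariate, it was not called (ortho IL-2 0.24, adjusted p = 0.123, and WT IL-2 0.23, adjusted p = 0.0688 by edgeR). That share moved with the groups, and the SE of the WT change was 0.08 in this fit, against 0.04 as reported.

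Ptpn2, for TC-PTP, was called in neither comparison. It had 177, 174 and 156 CPM in ortho IL-2, 158, 186 and 192 in WT IL-2 and 198, 188 and 191 in no IL-2 libraries. The ortho libraries lay below the resting ones, while the WT libraries overlapped them, and the third ortho IL-2 and the first WT IL-2 library, highest for Jak3, were lowest here. Its log2 fold change was -0.19 (95% interval -0.36 to -0.02, adjusted p = 0.0588 by edgeR) with ortho IL-2 and -0.11 (-0.28 to 0.06, adjusted p = 0.262) with WT IL-2. Ptpn2 has the transcript poorest in G and C, at 39.7% (percentile 4.30), and with GC and length offsets its change turned positive and was called, at 0.16 with ortho IL-2 (adjusted p = 0.00326) and 0.13 with WT IL-2 (adjusted p = 0.0123). DESeq2 called it lower with ortho IL-2 (-0.20, adjusted p = 0.0350), and so did edgeR without the first WT IL-2 library (-0.19, adjusted p = 0.010). Its direction thus depends on the processing.

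The files list Ptpn2 with a transcript of 8404 bases and another of 1612 bases. Reads on bases that they share may be counted on both, so their reads are not separate measures. Reads on the shorter, as a percentage of those on the longer, came to 71.8% ± 2.77 in ortho IL-2, 70.2% ± 3.47 in WT IL-2 and 65.1% ± 1.79 in no IL-2 libraries (SD, n = 3 each). The 6 libraries with IL-2, at 67.0% to 74.1%, lay above the 3 resting ones, at 63.1% to 66.4%. This percentage was looked at after the data were seen, so it is a description. It was not recomputed with GC and length offsets. In the other 5 genes with several transcripts, the reads of the second came to nearly those of the first, the lowest value being 96.9%, for Jak3.

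**Figure D2:**
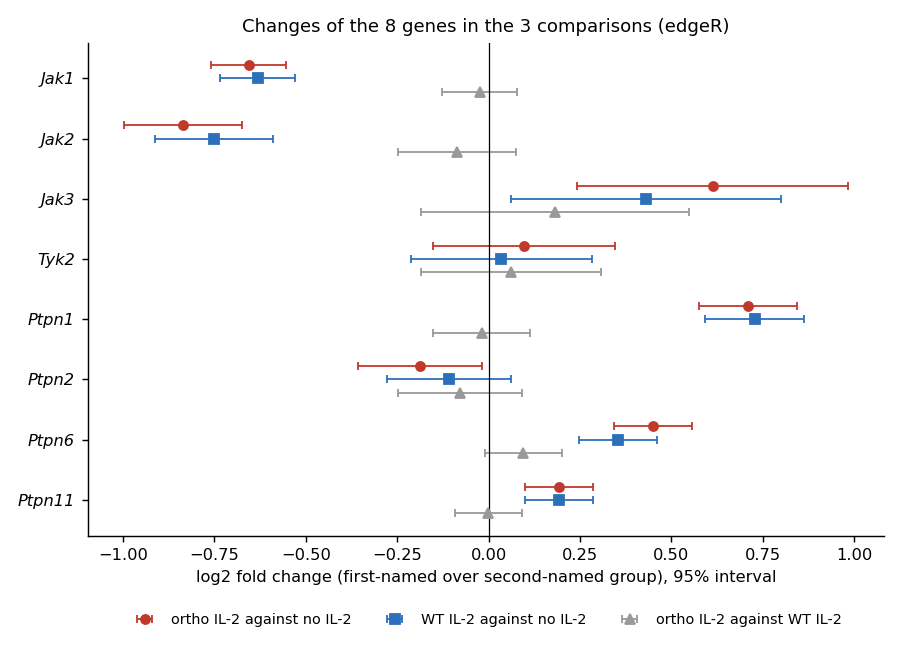
Changes of the 8 genes. The horizontal axis gives the log2 fold change from edgeR with its 95% interval, first-named over second-named group, for ortho IL-2 against no IL-2 (circles), WT IL-2 against no IL-2 (squares) and ortho IL-2 against WT IL-2 (triangles). Circles and squares of a gene lie close together, and every triangle's interval spans 0.

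Ortho and WT IL-2 were not told apart on any of the 8 genes. Called were 0 of the 8 and 0% of the 10702 genes tested by edgeR, and DESeq2 and limma also called 0. By edgeR, 149 genes (1.39%) had an unadjusted p under 0.05, a smaller share than the fraction of 0.05 that would pass without any difference. A share below that fraction is no measure of how alike the groups are. The intervals show how large a difference remains possible at 3 libraries each. For Jak1 the log2 difference, ortho over WT, was -0.02 (95% interval -0.13 to 0.08), for Ptpn1 -0.02 (-0.15 to 0.11) and for Ptpn11 0.00 (-0.09 to 0.09). For Jak2 it was -0.09 (-0.25 to 0.07), for Ptpn2 -0.08 (-0.25 to 0.09) and for Tyk2 0.06 (-0.18 to 0.31). The widest interval was that of Jak3, 0.18 (-0.19 to 0.55). Of the 8 genes, Ptpn6 alone had groups that did not overlap, as did 4.65% of all genes, with a difference of 0.09 (-0.01 to 0.20, adjusted p = 0.909 by edgeR).

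Shares within a library do not depend on the scaling between libraries. The shares of neither gene set were recomputed with GC and length offsets. Those offsets moved the log2 change with ortho IL-2 from 0.61 to 0.32 for Jak3 and from -0.84 to -0.65 for Jak2. Reads of Insl3 may also enter the share of Jak3. Of the summed RPKM of the 4 JAK genes, Jak1 held 58.9% ± 2.20 in ortho IL-2, 60.2% ± 3.22 in WT IL-2 and 66.4% ± 0.653 in no IL-2 cells, and Jak2 held 16.6% ± 1.19 in ortho IL-2, 17.7% ± 1.87 in WT IL-2 and 21.2% ± 0.208 in no IL-2 cells (SD, n = 3 each). Jak3 held 19.9% ± 2.82 in ortho IL-2, 17.6% ± 4.42 in WT IL-2 and 9.32% ± 0.380 in no IL-2 cells. Tyk2 held 4.65% ± 0.548 in ortho IL-2, 4.48% ± 0.622 in WT IL-2 and 3.12% ± 0.0737 in no IL-2 cells. For each of the 4 genes the 6 IL-2 libraries and the 3 resting libraries did not overlap. In CPM, groups did not overlap against no IL-2 for 66.1% of all genes tested with ortho IL-2 and 58.8% with WT IL-2. Such a count is therefore no result about the 4 genes. Since shares sum to 100%, a rise of one is in part the fall of others, as with Tyk2, whose CPM was not called.

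Of the summed phosphatase RPKM, Ptpn1 held 36.7% ± 1.82 in ortho IL-2, 37.6% ± 1.21 in WT IL-2 and 29.5% ± 0.638 in no IL-2 cells. Ptpn2 held 13.6% ± 1.04 in ortho IL-2, 14.6% ± 1.82 in WT IL-2 and 20.3% ± 0.561 in no IL-2 cells, and Ptpn11 held 13.9% ± 0.372 in ortho IL-2, 14.0% ± 0.350 in WT IL-2 and 15.9% ± 0.370 in no IL-2 cells (SD, n = 3 each). With the same limit as for the JAK genes, these 3 shares also did not overlap between stimulated and resting libraries. That of Ptpn6 did, at 35.8% ± 0.766 in ortho IL-2, 33.8% ± 1.06 in WT IL-2 and 34.3% ± 0.858 in no IL-2 cells. With all listed transcripts summed, these 2 changed places. For Ptpn6 and Ptpn11 the reads of the second transcript nearly equalled those of the first. That sum may thus count the same reads more than once for them, but not for Ptpn1, which has a single listed transcript. The Ptpn11 share then overlapped, reaching 14.29% in WT IL-2 against a lowest 14.26% in no IL-2 libraries. The Ptpn6 share then did not, with lowest values of 35.1% in ortho IL-2 and 32.2% in WT IL-2 against a highest 32.0% in no IL-2 libraries. Taken by its shorter transcript, Ptpn2 held 37.1% in ortho IL-2, 38.3% in WT IL-2 and 46.4% in no IL-2 cells, so the order of the phosphatases by level depends on the transcript.

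The balance between phosphatase and kinase RNA varied little among libraries with IL-2. Summed phosphatase RPKM over summed JAK RPKM was 0.421 ± 0.00520 in ortho IL-2, 0.419 ± 0.00617 in WT IL-2 and 0.230 ± 0.00154 in no IL-2 cells (SD, n = 3 each). The 6 stimulated libraries lay between 0.414 and 0.426 and the 3 resting ones between 0.229 and 0.232. Ortho and WT libraries overlapped in it. No test is given, since the sums run over genes picked for this account. The ratio was not recomputed with GC and length offsets. With Ptpn2 by its shorter transcript the ratio was 0.578 in ortho IL-2, 0.581 in WT IL-2 and 0.342 in no IL-2 cells. With all listed transcripts summed it was 0.594 in ortho IL-2, 0.598 in WT IL-2 and 0.375 in no IL-2 cells. That sum may count the same reads more than once for genes with several listed transcripts. Jak1 and Ptpn1 have a single one, so the summed ratio weighs the genes unequally.

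**Figure D3:**
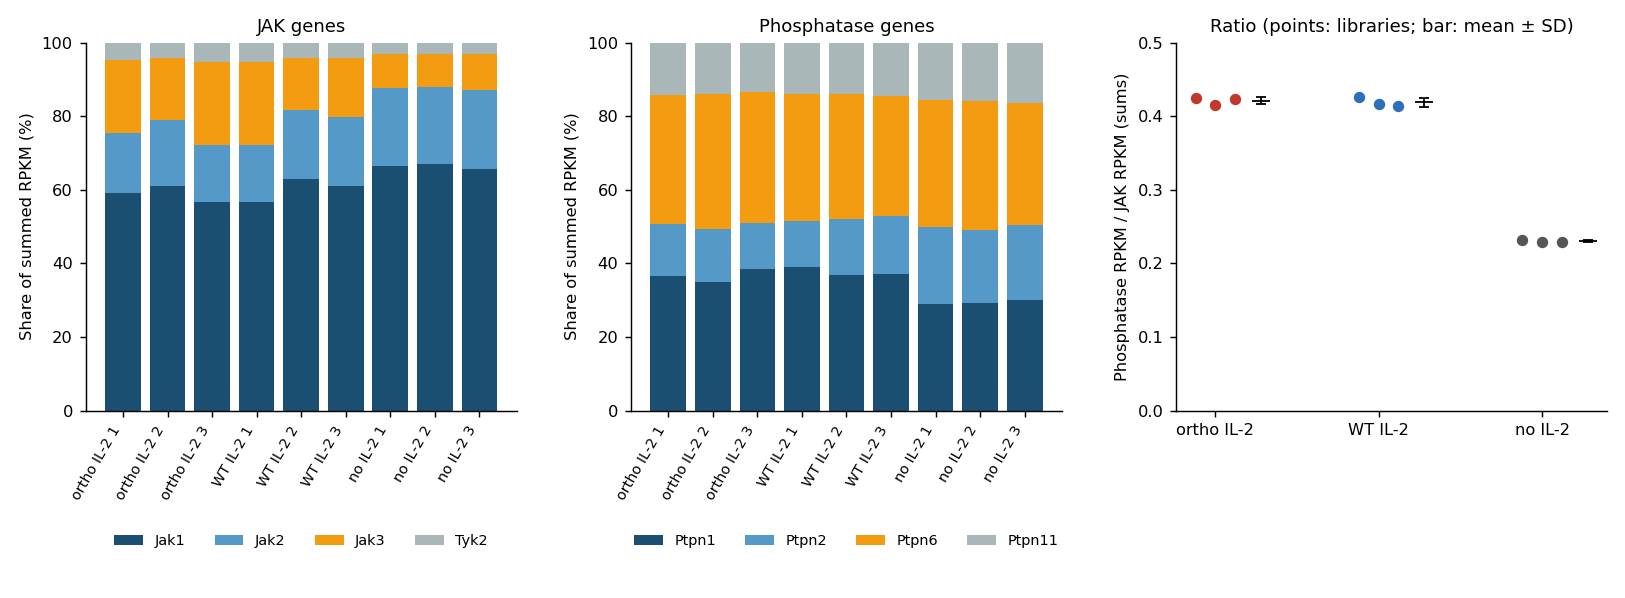
Make-up of the 2 gene sets in each library. The left and middle panels stack the share of summed RPKM held by each JAK gene and each phosphatase gene, in percent, for the 9 libraries, and the right panel gives summed phosphatase over summed JAK RPKM by library (points) with mean ± SD (n = 3). The share of Jak3 is larger in all 6 IL-2 libraries than in the 3 no IL-2 libraries, and the ratio is 0.414 to 0.426 against 0.229 to 0.232.

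The called changes of 4 genes held under every alternative tried. Jak1, Jak2, Ptpn1 and Ptpn6 kept their direction and their call against no IL-2 under all 20 alternative treatments of the data. Jak1 ranged over -0.68 to -0.38 with ortho IL-2 and -0.66 to -0.42 with WT IL-2, and Jak2 over -0.89 to -0.55 with ortho IL-2 and -0.79 to -0.53 with WT IL-2 (log2). Ptpn1 ranged over 0.57 to 0.99 with ortho IL-2 and 0.64 to 0.94 with WT IL-2, and Ptpn6 over 0.28 to 0.73 with ortho IL-2 and 0.24 to 0.57 with WT IL-2. The ends nearest to 0 for these kinases, and the highest for these phosphatases, came from RPKM or its divisor without further scaling. With that divisor the median gene itself shifted by 0.29 with ortho IL-2 and 0.22 with WT IL-2.

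**Figure D4:**
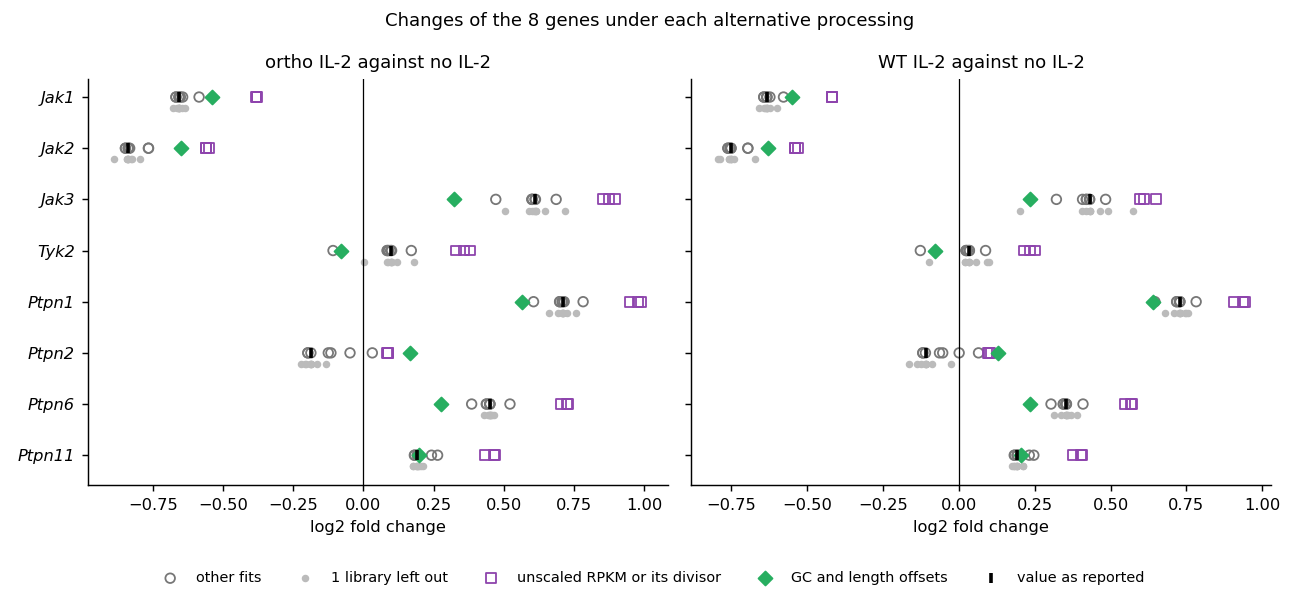
Changes of the 8 genes under each alternative. The horizontal axes give log2 fold changes against no IL-2 for ortho IL-2 (left) and WT IL-2 (right), with the value as reported (bar), 1 library left out (small points), RPKM or its divisor without further scaling (squares), GC and length offsets (diamonds) and the other fits (open circles). Jak1, Jak2, Ptpn1 and Ptpn6 stay on their side of 0, while Ptpn2 lies on both sides; the squares carry a shift of the median gene of 0.25 to 0.29 on the left and 0.19 to 0.22 on the right.

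The genes most like each member over the 9 libraries were named by Pearson's r of log2 CPM, a description in which the libraries share groups, depth and base composition. The closest to Jak1 was Fam49a (r = 0.999), followed by Il7r and Pde4b. Il7r encodes the IL-7 receptor chain, which also signals through JAK1. The closest to Jak2 was Cd28 (0.999), the costimulatory receptor, and the closest to Jak3 was Coro7 (0.995). Ptpn1 ran closest to Dbp (0.998), Srm and Cad, the last of which makes pyrimidines. Ptpn6 ran closest to Pgam1 (0.995), an enzyme of glycolysis, and Ptpn11 to Tnpo2 (0.990). For Tyk2 the closest was Map3k10 (0.981) and for Ptpn2 it was Styx (0.990). Among the members themselves, Jak1 and Jak2 had r = 0.992 with each other, Jak1 and Ptpn1 -0.994, and Jak3 and Ptpn2 -0.905.

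Around the members, each list of the pathway held called genes in both directions. Their counts are read beside the share of all genes tested that was called, 56.0% with ortho IL-2 (28.5% higher, 27.4% lower) and 47.9% with WT IL-2 (25.0% higher, 22.9% lower). Of 13 other genes of the non-receptor PTPN family 9 were tested, and 5 rose and 2 fell with ortho IL-2 while 4 rose and 2 fell with WT IL-2. Their median log2 change was 0.39 with ortho IL-2 and 0.24 with WT IL-2, beside 0.01 over all genes in both comparisons. Ptpn9 averaged 396 CPM in ortho IL-2, 401 in WT IL-2 and 104 in no IL-2 cells, 3.82-fold higher with ortho IL-2 (adjusted p = 4.21e-09 by edgeR) and 3.87-fold higher with WT IL-2 (adjusted p = 4.45e-09), a larger rise than that of any of the 4 phosphatases above. Ptpn13 rose 2.05-fold with ortho IL-2 and 2.11-fold with WT IL-2. Ptpn22, whose product restrains T cell receptor signalling, fell by 0.77 with ortho IL-2 and 0.75 with WT IL-2 on the log2 scale. Of 21 receptor-type phosphatases 6 were tested, and 1 rose and 2 fell in each comparison. Ptprj rose 1.32-fold with ortho IL-2 and 1.37-fold with WT IL-2, and Ptprc, for CD45, which acts on JAKs and Src kinases, fell by 0.29 with ortho IL-2 and 0.22 with WT IL-2 (log2).

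The 10 STAT and IL-2 receptor genes were all tested, and 4 rose and 4 fell in each comparison. Il2ra rose 3.98-fold with ortho IL-2 and 4.11-fold with WT IL-2, and Stat5b fell by 0.63 with ortho IL-2 and 0.67 with WT IL-2 on the log2 scale. Il2rb rose 3.26-fold with ortho IL-2 and 3.05-fold with WT IL-2, although reads of the transduced chain cannot be told apart from those of the native gene. Of 20 other JAK regulators, 8 rose and 5 fell with ortho IL-2 and 8 rose and 4 fell with WT IL-2. Of all genes tested, 28.5% rose and 27.4% fell with ortho IL-2, and 25.0% rose and 22.9% fell with WT IL-2. The counts of the list were not tested against these shares. Cish, a SOCS family inhibitor, rose 8.14-fold with ortho IL-2 and 7.73-fold with WT IL-2, and Socs2 rose 2.84-fold with ortho IL-2 and 2.91-fold with WT IL-2. These were named by smallest p, and Socs1 rose further, 22.3-fold with ortho IL-2 and 20.6-fold with WT IL-2. Socs3 rose 4.30-fold with ortho IL-2 and 4.10-fold with WT IL-2. The ubiquitin ligase gene Cblb fell by 0.93 with ortho IL-2 and 0.91 with WT IL-2 (log2).

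Of 18 adaptors and receptors that dock SHP-1 or SHP-2, 14 were tested, and 2 rose and 8 fell in each comparison, with a median log2 change of -0.23 with ortho IL-2 and -0.20 with WT IL-2, beside 0.01 over all genes. Of all genes tested, 27.4% fell with ortho IL-2 and 22.9% with WT IL-2. Pdcd1, for the inhibitory receptor PD-1, which recruits SHP-2, fell by 1.16 with ortho IL-2 and 1.21 with WT IL-2 (log2). The adaptor gene Gab2 rose 1.66-fold with ortho IL-2 and 1.68-fold with WT IL-2, and the adaptor gene Dok2 rose 1.51-fold with ortho IL-2 and 1.45-fold with WT IL-2. Of 15 other cytoplasmic tyrosine kinases of T cells 14 were tested, and 7 rose and 3 fell with ortho IL-2 while 6 rose and 3 fell with WT IL-2. Syk rose 1.60-fold with ortho IL-2 and 1.62-fold with WT IL-2, and Fes rose 2.92-fold with ortho IL-2 and 2.79-fold with WT IL-2. Matk, a relative of the inhibitory kinase Csk, fell by 0.50 with ortho IL-2 and 0.77 with WT IL-2 (log2). Of 16 other receptor genes that signal through JAKs 15 were tested, and 5 rose and 7 fell with ortho IL-2 while 4 rose and 6 fell with WT IL-2. Il7r fell by 1.93 with ortho IL-2 and 1.85 with WT IL-2 on the log2 scale. Il6ra, for the IL-6 receptor, fell by 0.89 with ortho IL-2 and 0.83 with WT IL-2, and Ifnar1, for a type I interferon receptor chain, by 0.78 with ortho IL-2 and 0.73 with WT IL-2.

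By position in GRCm38 (GENCODE M21), Jak1 lies at chr4:101152367-101265282 on the minus strand, Jak2 at chr19:29251828-29313080 on the plus strand, Jak3 at chr8:71676296-71690575 on the plus strand and Tyk2 at chr9:21104068-21131243 on the minus strand. Ptpn1 lies at chr2:167932057-167979385 on the plus strand and Ptpn2 at chr18:67665511-67724595 on the minus strand. Ptpn6 lies at chr6:124720707-124738714 and Ptpn11 at chr5:121130533-121191397, both on the minus strand. No 2 of the 8 share a chromosome.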

How the data were processed

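Messenger RNA was sequenced on an Illumina instrument from 9 libraries, 3 per group. Per the file headers, each deposited table gives raw read counts and RPKM for 31682 transcripts of 23992 symbols. The RPKM values deposited by the authors scale those counts by transcript length and by 1 total per library (the divisor), which includes reads outside the transcripts chosen here. The submitters' processing notes name Bowtie2, TopHat2, SAMtools 0.1.8, bedtools 2.25.0, edgeR and the mm10 build. What each tool did, how reads were counted, which annotation was used and whether strand was used is not given in the sources used here. Depth was 16581624 to 58182835 reads in genes.

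Counts, 1 transcript per symbol, were tested with edgeR 4.0.16 in R 4.3.3 (TMM, group means as terms, two-sided), for genes at 1 RPKM or more in 3 or more libraries. Standard errors come from the F statistic. The fit was checked on simulated counts, drawn independently for each gene and library. At an adjusted p under 0.05 by edgeR it recovered 24% of 1.25-fold, 74% of 1.5-fold, 88% of 2-fold and 100% of 4-fold changes. Of unchanged genes, 5.02% had an unadjusted p under 0.05. Variation that many genes of a library share was not simulated. Alternatives were DESeq2 1.42.0 and its size factors, the RPKM divisor as library size, limma 3.58.1 on log2(RPKM + 1) and log2(RPKM + 0.1), no filter, summed transcripts, a covariate, GC and length offsets, a replicate block, and leaving out each library. All 8 members were named, and up to 3 genes by smallest p from each list. Socs1 and Socs3 were added to these for the size of their rise. By highest r, 3 genes were named for Jak1 and Ptpn1 and only the first for the other members. The members and lists were chosen with earlier results of these data known. Protein sequences were not used here. Exact permutation tests planned for shares and the ratio are not printed, since they would rest on the chosen genes alone.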

Additional observations from a re-analysis of the deposited data

How the results depend on the processing

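Of 480 recomputed log2 changes of the 8 genes, 421 kept direction and call, 15 gained a call, 3 lost one and 41 changed sign. Of the sign changes, only those of Ptpn2 with GC and length offsets, at 0.16 with ortho IL-2 and 0.13 with WT IL-2 against no IL-2, were called; the others were called neither as reported nor under the alternative. Against no IL-2, Ptpn2 was at 0.088 with ortho IL-2 and 0.10 with WT IL-2 on the RPKM divisor, 0.083 and 0.088 for ortho IL-2 and 0.095 and 0.10 for WT IL-2 by limma at pseudocounts of 1 and 0.1, 0.032 with ortho IL-2 and 0.065 with WT IL-2 with the covariate, and 0.00151 with WT IL-2 by its shorter transcript. Tyk2 was at -0.11 with ortho IL-2 and -0.13 with WT IL-2 with the covariate, at -0.078 with ortho IL-2 and -0.079 with WT IL-2 with GC and length offsets, and at -0.10 to 0.10 with WT IL-2 when 1 library was left out. For ortho over WT IL-2, the divisor and both limma fits gave 0.0375, 0.0378 and 0.0381 for Jak1, 0.046, 0.042 and 0.043 for Ptpn1 and 0.0623, 0.058 and 0.061 for Ptpn11, in that order. In that comparison GC and length offsets gave 0.012 for Jak1 and 0.034 for Ptpn2, no filter gave 0.000409 for Ptpn1 and 0.017 for Ptpn11, and Ptpn11 was at 0.00362 with transcripts summed and 0.010 with the covariate. Leaving out 1 library gave -0.058 to 0.00224 for Jak1, -0.033 to 0.20 for Tyk2, -0.067 to 0.031 for Ptpn1 and -0.020 to 0.012 for Ptpn11. With the share of reads outside the transcripts as a covariate, 1573 genes were called with ortho IL-2 and 2130 with WT IL-2. As reported, 5990 were called with ortho IL-2 and 5122 with WT IL-2. That share moved with the groups, and the cause of the drop was not tested. Leaving out each library in turn gave 4746 to 6634 calls with ortho IL-2 and 4068 to 5344 with WT IL-2. On the RPKM divisor as library size 5707 of 6653 calls were higher with ortho IL-2 and 4630 of 5525 with WT IL-2, against 3054 of 5990 with ortho IL-2 and 2675 of 5122 with WT IL-2 as reported. The phosphatase to JAK ratio differed between the 6 stimulated and the 3 resting libraries by 0.190, and by 0.189 to 0.191 with 1 library left out; ortho minus WT was 0.00230, within -0.000269 to 0.00573 with 1 left out, and -0.00413 with transcripts summed. Summing transcripts also moved the difference in the share of Jak2 to -7.30 percentage points, against -4.03. In the ratio and the shares, that sum may count the same reads more than once for Jak2 and other genes with several transcripts, but not for Jak1 and Ptpn1. The shorter Ptpn2 transcript, stimulated minus resting libraries, gave 4.87 to 6.69 percentage points with 1 left out; this percentage, and Ptpn2 by its shorter transcript, were chosen after seeing the data.

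Whether the replicate numbers pair the samples is not known. The deviations of same-numbered samples correlated at -0.659 to 0.439, over 0.1 in 3 of 9 pairs. Those of differently numbered samples correlated at -0.565 to 0.599. Deviations from a mean of only 3 libraries are tied to each other, so these values cannot settle the question. With a replicate block 5652 genes were called with ortho IL-2 and 4788 with WT IL-2, and the WT change of Jak3 was 0.41 (adjusted p = 0.0423 by edgeR).

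With 3 libraries a group, the 95% interval of the log2 difference between ortho and WT IL-2 was widest for Jak3 (-0.19 to 0.55) and narrowest for Ptpn11 (-0.09 to 0.09).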
